A study of Mus musculus with 9 samples.

Results

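The genes described here are 39 genes of the interferon response and of antigen presentation by class I molecules of the major histocompatibility complex (MHC), followed in hippocampal RNA of SAMP10 mice on 9 Affymetrix arrays. A gene was followed through every probe set, the group of array probes that reads a transcript, whose only platform gene symbol is that gene, provided that no array held an exact 0 for it. This gave 37 probe sets for 34 genes out of 21959 probe sets tested, which read 16429 genes through probe sets of their own. Of the other 5 genes, Isg15, H2-D1 and H2-K1 had no probe set of their own here and Mx1 and Mx2 held exact zeros. Irf1 was read by 2 probe sets, Ifitm2 by 3 and each of the other 32 genes by 1.

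All mice were males of SAMP10/TaSlc, an inbred senescence-accelerated strain, housed 6 to a cage. The control group ate the CE-2 diet, the yellow soybean group the same diet with 3.0% yellow soybean extract and the green soybean group the same diet with 3.0% green soybean extract, from 1 to 12 months of age, and each group is represented by 3 arrays. The extracts are whole preparations, and their dose per mouse, the number of mice behind an array and the cage of each mouse are not in the labels, so p-values measure the spread between arrays, which may be technical, and cage and diet cannot be told apart. Values are the authors' normalized scores, a z-type scale on which the middle 50% of the tested probe sets of an array spans 0.742 to 0.852 units. Every difference is in these score units, and scores of different probe sets are not comparable as levels.

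Interferons are secreted signals that cells release when they sense viral or displaced nucleic acid. Type I interferons act through JAK kinases and a complex with STAT2 and IRF9 that binds the interferon-stimulated response element in the promoters of antiviral genes, and interferon gamma acts in part through IRF1 on genes of antigen presentation. Class I presentation cuts cytosolic proteins in the proteasome, moves the peptides into the endoplasmic reticulum, trims them and loads them on a heavy chain bound to beta-2 microglobulin. In brain, microglia and endothelium are the cells best known for both programmes, and neurons also use class I molecules at synapses.

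To show which members carry the response element, promoter windows of RefSeq genes (250 bases before to 50 after the annotated start, GRCm38.p6) were searched on both strands for its core, a pair of GAAA runs 2 bases apart. A match was present in 1131 of 32851 windows (3.44%) and in 14 of the 36 windows found for 31 of the 39 genes, these 14 windows belonging to 14 different genes. The core of STAT sites, TTCNNNGAA, which reads the same on both strands, was present in 2726 windows (8.30%) and in 7 of the 36. In Bst2 a STAT core overlaps a response element core by 3 bases, and Isg15 holds 3 overlapping cores from -78 to -57. The following stretches upstream of the start come from 4 genes with a full set of values below. Candidates were measured genes set out with the design that had 1 window, a start at the annotated gene end and an upstream match. Of these, the 4 with the smallest p in the F-test across the diets were taken, so the choice used these arrays and does not link the element to expression. Matches are in capitals (written 5′ to 3′ on the gene's strand, so a match on the opposite strand reads as a pair of TTTC runs):
Bst2, chr8:71537547-71537642, minus strand: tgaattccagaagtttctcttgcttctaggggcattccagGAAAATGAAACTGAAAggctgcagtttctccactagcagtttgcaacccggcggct
Rsad2, chr12:26456523-26456612, minus strand: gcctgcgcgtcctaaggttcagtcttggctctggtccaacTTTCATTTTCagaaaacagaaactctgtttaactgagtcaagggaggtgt
B2m, chr2:122147508-122147597, plus strand: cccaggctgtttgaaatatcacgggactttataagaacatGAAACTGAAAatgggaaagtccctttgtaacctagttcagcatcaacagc
Stat2, chr10:128270248-128270325, plus strand: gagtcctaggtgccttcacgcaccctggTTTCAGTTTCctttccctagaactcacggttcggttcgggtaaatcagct
In Bst2, 2 overlapping cores form 1 run between -130 and -115, and the single matches begin at -120 in Rsad2, -139 in B2m and -222 in Stat2. The matches are letters in a window and were not tested as binding sites.

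**Figure D1:**
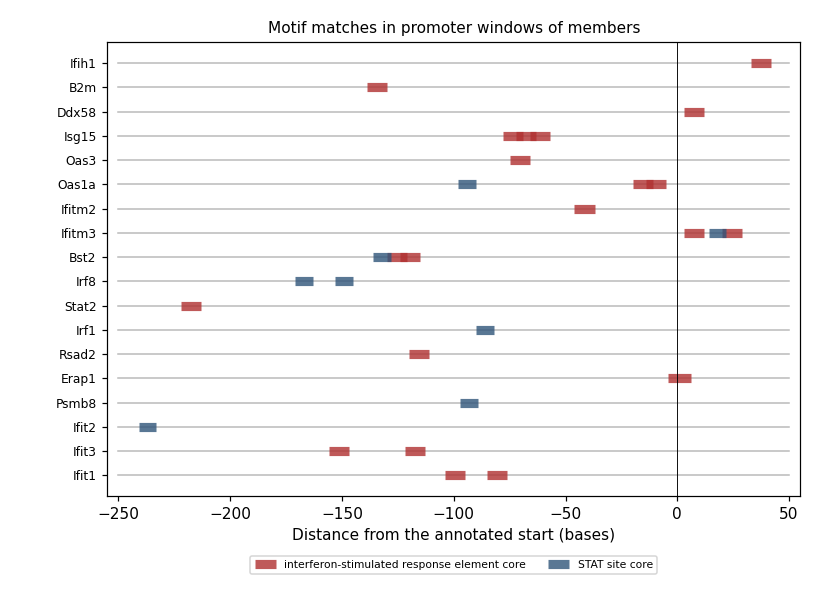
Matches of the interferon-stimulated response element core (red) and the STAT site core (blue) in promoter windows of the 18 member genes with any match, by distance in bases from the annotated start; each grey line is 1 gene's window. Isg15, Ifit1, Ifit3, Oas1a, Bst2 and Ifitm3 hold more than 1 response element core.

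Across the series the arrays were alike: scores of 8 arrays correlated with those of the rest at 0.977 to 0.981 on average over probe sets, and those of green soybean replicate 3 at 0.958. Among the 37 member probe sets that array held the highest value in 11 (29.7%) and the lowest in 7 (18.9%), against 24.7% and 23.4% of all probe sets tested. Every gene listed as a marker of pyramidal cells (5), dentate granule cells (3), neurons (4) and astrocytes (6) had a score on all 9 arrays, which does not rank those cells. The mean score of the 5 pyramidal cell markers was 0.640 on green soybean replicate 3, the lowest array in 4 of them, and 0.838 to 0.976 on the other 8 arrays, and that array was also lowest in 5 of 9 endothelial markers. The part of this in the values that rest on green soybean replicate 3 was not tested. Over all probe sets the median difference was 0.0296 for green soybean minus control, 0.0140 for yellow soybean minus control and 0.0147 for green minus yellow soybean on the deposited scale, and with array medians aligned these were -0.0205, -0.0149 and -0.00652, so the general shift rests on the scaling. After quantile normalization they were 0.00153, -7.21e-04 and 0.00190. In bulk tissue, fewer cells of a type and less RNA per cell cannot be told apart.

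Exact zeros kept a pair of antiviral genes out. Mx1 and Mx2, GTPases that block virus replication, were listed at exactly 0 on 7 and 4 arrays, and where a score was given it lay between -0.739 and -0.450. The within-diet standard deviation of the members had a median of 0.0834 units, against 0.0776 over all probe sets, and ran from 0.0374 for an Irf1 probe set to 0.150 for Ifit1.

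**Figure D2:**
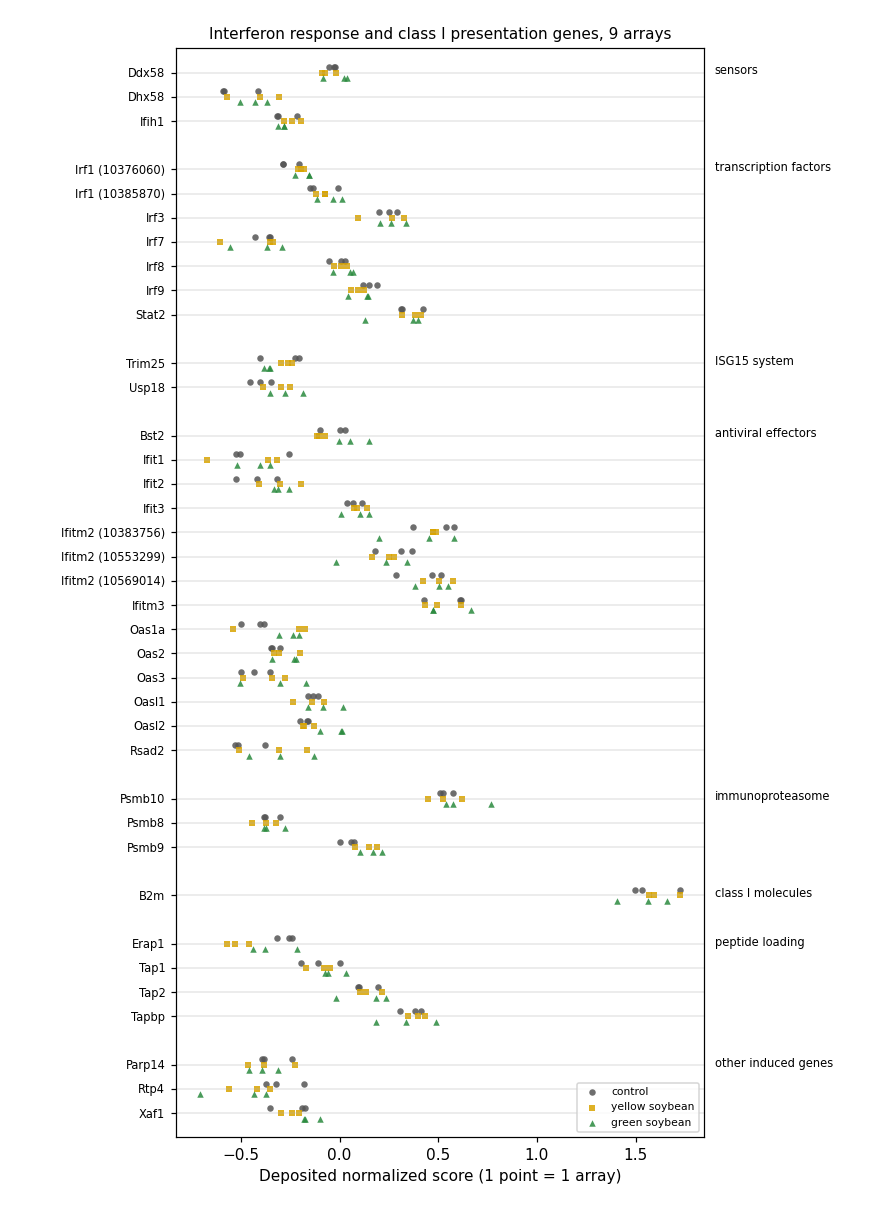
Deposited normalized score (x axis) of the 37 member probe sets on the 9 arrays, grouped by role; grey circles are control, yellow squares yellow soybean and green triangles green soybean arrays. The points of the 3 diets overlap in most rows, and rows are not comparable as levels.

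Whether the green extract goes with other levels of these transcripts was read from the green soybean and control arrays. Limma called 0 of the 37 member probe sets at an adjusted p below 0.05, and it called 0% of all probe sets. The smallest adjusted p among members was 0.456. At an unadjusted p below 0.05 there were 2 higher members, 5.41% against 8.32% of all probe sets, and 1 lower member, 2.70% against 1.40%. All 3 green arrays lay above all 3 control arrays in 3 members (8.11%, against 13.2% of all probe sets) and below them in 1 (2.70%, against 2.67%). The members' shares were therefore near those of all probe sets. The median difference over the members was 0.0257, and 24 of 37 were higher (64.9%, against 65.0% of all probe sets); when array medians were aligned the median was -0.0244 and 17 were higher, and when arrays were quantile normalized it was -0.0132 and again 17 were higher, so the sign rests on the scaling.

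Among the antiviral effectors, Oasl2, an interferon-induced protein related to the 2′-5′ oligoadenylate synthetases, scored -0.198, -0.163 and -0.160 in controls, -0.184, -0.178 and -0.128 with yellow soybean and 0.00779, -0.0998 and 0.0135 with green soybean. Every green array lay above every control and yellow array, while control and yellow arrays overlapped. The difference of green minus control was 0.148 ± 0.0508 (SE), with unadjusted p = 0.0134 and limma adjusted p = 0.456. With array medians aligned it was 0.0974. Its relative Oasl1 scored -0.132, -0.107 and -0.162 in controls, -0.0779, -0.138 and -0.235 with yellow and 0.0179, -0.159 and -0.0822 with green soybean, and these 3 groups overlapped.

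Oas1a, an oligoadenylate synthetase that activates RNase L, scored -0.380, -0.400 and -0.498 in controls and -0.238, -0.306 and -0.203 with green soybean. All green arrays lay above all control arrays, but the yellow arrays, at -0.203, -0.540 and -0.172, spanned both groups. The difference of green minus control was 0.177 ± 0.0860 (SE), with limma adjusted p = 0.539. Mouse Oas1a has close copies, and a further probe set that the annotation shares between Oas1a and Oas1g was not used. Oas2 and Oas3, the other synthetases, ranged over -0.345 to -0.201 and -0.502 to -0.168 and overlapped between green and control, with differences of 0.0654 and 0.105.

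Rsad2, which encodes viperin, an inhibitor of viral RNA synthesis, scored -0.376, -0.527 and -0.512 in controls, -0.305, -0.507 and -0.166 with yellow and -0.460, -0.300 and -0.127 with green soybean. Green soybean replicate 1 lay inside the control range. The difference of green minus control, 0.176 ± 0.0958 (SE) with limma adjusted p = 0.569, was 0.0914 without green soybean replicate 3. Ifit2, of the family of RNA-binding proteins that restrict viral translation, scored -0.316, -0.525 and -0.420 in controls and -0.332, -0.257 and -0.313 with green soybean, with control replicate 1 inside the green range. Ifit1, of the same family, scored -0.256, -0.504 and -0.526 in controls, -0.314, -0.672 and -0.360 with yellow and -0.353, -0.521 and -0.402 with green soybean. The spread within each diet exceeded the differences between the diet means. Ifit3, the third of the 3 Ifit members followed, scored 0.0668, 0.0390 and 0.112 in controls, 0.0725, 0.0869 and 0.141 with yellow and 0.104, 0.00697 and 0.151 with green soybean, again with overlapping groups.

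Ifitm3, a membrane protein that blocks virus entry, scored 0.616, 0.428 and 0.613 in controls, 0.614, 0.494 and 0.431 with yellow and 0.668, 0.474 and 0.476 with green soybean, and no diet stood apart. The 3 probe sets of Ifitm2, a close paralog, did not agree in sign. For green minus control they gave -0.100, -0.0852 and 0.0567, and without green soybean replicate 3 the first of these was 0.00231 and the second 0.0195. The first scored 0.312, 0.179 and 0.367 in controls, 0.251, 0.163 and 0.276 with yellow and 0.343, 0.234 and -0.0198 with green soybean. The second scored 0.539, 0.373 and 0.579 in controls, 0.490, 0.475 and 0.475 with yellow and 0.578, 0.455 and 0.202 with green soybean. In both, green soybean replicate 3 was the lowest of the 9 arrays and the diets otherwise overlapped. Of the 14 probe sets of antiviral effectors, 11 were higher with green soybean than in controls on the deposited scale (78.6%, against 65.0% of all probe sets) and 9 under either rescaling. On the deposited scale 1 of them was higher at an unadjusted p below 0.05 (7.14%, against 8.32%), and 0 were called. Their median difference was 0.0623, or 0.0122 with aligned medians and 0.0297 after quantile normalization.

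The immunoproteasome is the interferon-induced form of the proteasome, in which the catalytic subunits Psmb8, Psmb9 and Psmb10 replace their constitutive relatives. Psmb9 scored 0.0757, 0.0582 and 0.000134 in controls, 0.0799, 0.191 and 0.149 with yellow and 0.103, 0.168 and 0.214 with green soybean. All arrays of both extracts lay above all control arrays, and the extracts overlapped each other. The difference was 0.117 ± 0.0533 (SE) for green minus control (limma adjusted p = 0.509), or 0.0670 with array medians aligned, and 0.0949 ± 0.0533 (SE) for yellow minus control (limma adjusted p = 1.00). Psmb10 scored 0.511, 0.574 and 0.526 in controls, 0.449, 0.524 and 0.622 with yellow and 0.542, 0.575 and 0.769 with green soybean, where green soybean replicate 3 was the highest of the 9 arrays. Psmb8 scored -0.299, -0.377 and -0.384 in controls, -0.322, -0.371 and -0.441 with yellow and -0.370, -0.382 and -0.274 with green soybean, and its groups overlapped. Green soybean replicate 3 held the highest value of all 9 arrays in each of these 3 genes.

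Rtp4, an interferon-induced chaperone of G protein-coupled receptors, scored -0.181, -0.372 and -0.323 in controls, -0.350, -0.417 and -0.561 with yellow and -0.374, -0.435 and -0.707 with green soybean. The 3 green arrays lay below the 3 control arrays, and yellow soybean replicate 1 lay inside the control range. The difference of green minus control was -0.213 ± 0.0890 (SE), with unadjusted p = 0.0341 and limma adjusted p = 0.497. It was -0.112 without green soybean replicate 3, the array with the lowest score. Xaf1, a pro-apoptotic antagonist of XIAP, scored -0.354, -0.188 and -0.173 in controls, -0.206, -0.239 and -0.296 with yellow and -0.177, -0.100 and -0.182 with green soybean, where green arrays lay above the yellow arrays but not above all controls. Parp14, an ADP-ribosyltransferase, ranged over -0.463 to -0.228 with no diet apart.

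In the ISG15 system, which attaches the ubiquitin-like protein Isg15 to other proteins, Usp18, the protease that removes Isg15 and dampens interferon receptor signalling, scored -0.452, -0.347 and -0.402 in controls, -0.386, -0.252 and -0.296 with yellow and -0.187, -0.353 and -0.274 with green soybean. Green soybean replicate 2 lay inside the control range by a small margin. Its difference of green minus control was 0.129 ± 0.0599 (SE), with limma adjusted p = 0.522, or 0.0785 with array medians aligned. Trim25, the ubiquitin ligase that activates the sensor RIG-I, scored -0.204, -0.405 and -0.227 in controls, -0.297, -0.240 and -0.263 with yellow and -0.382, -0.353 and -0.358 with green soybean. The green arrays lay below the yellow arrays and inside the control range, which control replicate 2 widened. The difference of green minus control was -0.0856, or -0.149 without control replicate 2, -0.0484 without control replicate 1 and -0.136 with array medians aligned.

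**Figure D3:**
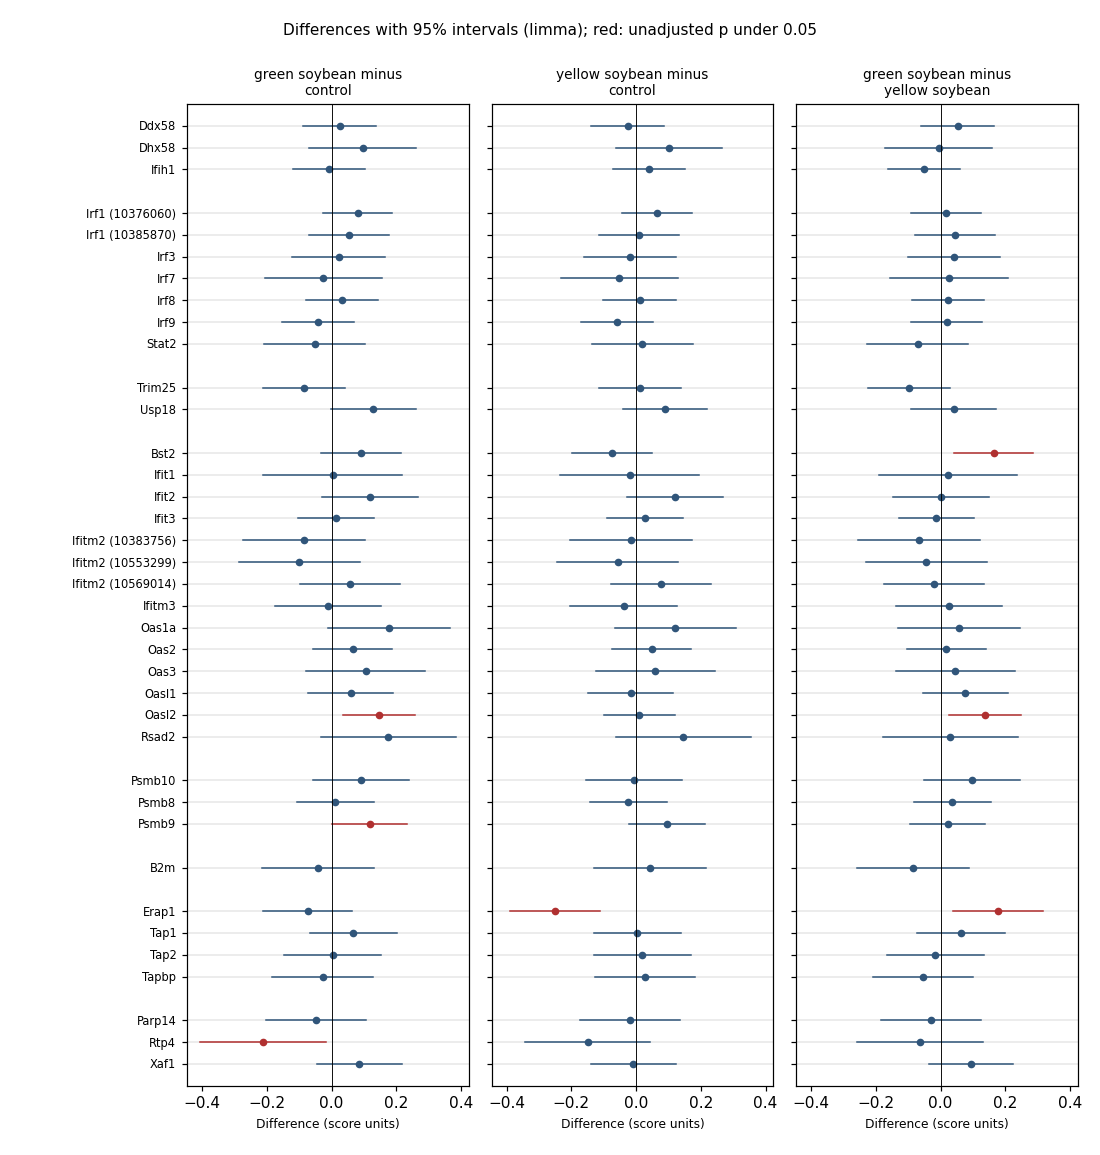
Difference in score units with its 95% interval from limma for the 37 member probe sets, in the comparisons green minus control, yellow minus control and green minus yellow soybean; red marks an unadjusted p below 0.05. The intervals of 3, 1 and 3 members exclude 0, and 0 members passed the adjusted test in any comparison.

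For the yellow extract the same question was put with the same control arrays. Limma called 0 of 37 members and 0% of all probe sets, with an adjusted p of 1.00 for each member. At an unadjusted p below 0.05, 0 members were higher (2.11% of all probe sets were) and 1 was lower (2.70%, against 0.929%). All 3 yellow arrays exceeded all 3 controls in 1 member, Psmb9 (2.70%, against 6.65%), and were below them in 1, Erap1 (2.70%, against 2.65%). Over the members the median difference was 0.0103, with 21 of 37 higher (56.8%, against 60.4% of all probe sets), and aligning array medians made it -0.0186 with 12 higher, quantile normalization -0.00789 with 14 higher.

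Erap1, the endoplasmic reticulum aminopeptidase that trims peptides to the length class I molecules hold, scored -0.256, -0.315 and -0.239 in controls, -0.459, -0.531 and -0.572 with yellow and -0.439, -0.217 and -0.375 with green soybean. The yellow arrays lay below all control and all green arrays, whereas green and control arrays overlapped. The mean score of Erap1 was low, at percentile 12.1 of all probe sets tested. Its yellow scores lay within the range of the scores given for Mx1 and Mx2, as did scores of other members, among them Rtp4 on green soybean replicate 3 (-0.707). The difference of yellow minus control was -0.251 ± 0.0631 (SE), with a 95% interval of -0.389 to -0.113, an unadjusted p of 0.00190 that ranked 16 among 21959, and limma adjusted p = 1.00. Leaving out each array in turn moved this difference between -0.282 and -0.225. Green minus yellow soybean was 0.177 ± 0.0631 (SE) with limma adjusted p = 0.660, or 0.114 without green soybean replicate 2, and green minus control was -0.0737 with an interval of -0.211 to 0.0641, or -0.0261 without green soybean replicate 1 and -0.137 without green soybean replicate 2.

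The other members with the smallest p values for yellow soybean were less separated. Ifit2 scored -0.406, -0.195 and -0.302 with yellow soybean, overlapping the controls, at a difference of 0.119 that was 0.0671 without control replicate 2 and 0.0663 without yellow soybean replicate 2. Rsad2, Usp18 and Oas1a differed by 0.146, 0.0887 and 0.121. The Rsad2 value moved to 0.0655 without yellow soybean replicate 3 and to 0.236 without yellow soybean replicate 2, and that of Oas1a to 0.0549 and 0.238 without the same arrays. Usp18 was at 0.0591 without yellow soybean replicate 2. Rtp4, Bst2, Irf9 and an Ifitm2 probe set were lower under each scaling, with deposited-scale differences of -0.150, -0.0736, -0.0596 and -0.0564, and for each of these 4 the yellow and control arrays overlapped. The Rtp4 value was -0.0909 without yellow soybean replicate 3 and -0.0947 without control replicate 1, and that of Bst2 -0.0481 without control replicate 2. The Ifitm2 value ranged from -0.110 without control replicate 2 to -0.0159 without control replicate 3.

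Green minus yellow soybean tests whether the extracts differ. Limma called 0 of 37 members and 0% of all probe sets, with a smallest member adjusted p of 0.634. At an unadjusted p below 0.05 there were 3 higher members (8.11%, against 5.56% of all probe sets) and 0 lower ones (1.53% of all). Green arrays lay wholly above yellow arrays in 4 members (10.8%, against 7.63%), which were Bst2, Erap1, Oasl2 and Xaf1, and wholly below in 1, Trim25 (2.70%, against 2.92%). Members were higher in 24 of 37 (64.9%, against 58.0%), with a median difference of 0.0221. Aligning array medians left 20 higher, and quantile normalization left 14 higher with a median of -0.0127.

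Bst2, also called tetherin, which holds budding virus particles at the cell surface, scored -0.101, 0.0274 and 0.00247 in controls, -0.115, -0.104 and -0.0721 with yellow and -0.00233, 0.147 and 0.0547 with green soybean. The 3 yellow arrays lay below the 3 green arrays, and control arrays spanned part of both ranges. Green minus yellow soybean was 0.164 ± 0.0564 (SE), with a 95% interval of 0.0406 to 0.287 and limma adjusted p = 0.634. Leaving out each array in turn gave 0.123 to 0.198. Oasl2 differed by 0.137 ± 0.0508 (SE) between the extracts, with limma adjusted p = 0.660, and Xaf1 by 0.0940 (limma adjusted p = 0.772), or 0.0562 after quantile normalization. Trim25 differed by -0.0976 (limma adjusted p = 0.772), and Psmb10 by 0.0970, or 0.0271 without green soybean replicate 3 and 0.0558 without yellow soybean replicate 1. Among the other lower members with the smallest p, Ifih1 differed by -0.0500, or -0.0277 without yellow soybean replicate 1. Stat2 and an Ifitm2 probe set differed by -0.0704 and -0.0681, and without green soybean replicate 3 these values were 0.0144 and 0.0366.

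Limma's F-test across all diets called 0 of 37 members and 0% of all probe sets, with a smallest member adjusted p of 0.683 by limma. At an unadjusted p below 0.05 there were 3 members, Erap1, Oasl2 and Bst2, against 7.06% of all probe sets.

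The transcription factors of the pathway overlapped between the diets. Irf7, which amplifies type I interferon production, scored -0.352, -0.429 and -0.357 in controls, -0.334, -0.352 and -0.607 with yellow and -0.370, -0.555 and -0.291 with green soybean. Yellow soybean replicate 3 and green soybean replicate 2 were the lowest arrays. Irf9, the DNA-binding partner of STAT2, scored 0.188, 0.147 and 0.120 in controls, 0.123, 0.0942 and 0.0584 with yellow and 0.145, 0.0451 and 0.140 with green soybean. Stat2, a signal transducer of type I interferon, scored 0.423, 0.312 and 0.319 in controls, 0.413, 0.382 and 0.315 with yellow and 0.373, 0.395 and 0.130 with green soybean, green soybean replicate 3 lying below the other 8 arrays.

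Irf1, the factor of the interferon gamma response, was read by 2 probe sets, and the diets overlapped in both. The first of these scored -0.00698, -0.149 and -0.133 in controls, -0.0743, -0.0723 and -0.118 with yellow and -0.112, -0.0312 and 0.0125 with green soybean, and the other differed by 0.0800 for green and 0.0642 for yellow soybean against control. Irf8, a factor of microglia and other myeloid cells, scored 0.00803, 0.0294 and -0.0510 in controls, -0.0290, 0.00812 and 0.0391 with yellow and 0.0664, -0.0345 and 0.0518 with green soybean, the smallest range among the members. Irf3, which starts interferon transcription after RNA or DNA sensing, ranged over 0.0939 to 0.339, and yellow soybean replicate 1 was its lowest array.

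The sensors of double-stranded RNA overlapped between all diets too. Ifih1, which encodes MDA5, scored -0.214, -0.309 and -0.318 in controls, -0.195, -0.283 and -0.241 with yellow and -0.279, -0.279 and -0.311 with green soybean. Ddx58, which encodes RIG-I, ranged over -0.0903 to 0.0385, and Dhx58, which encodes their regulator LGP2, over -0.590 to -0.308. The 95% interval of green minus control was -0.121 to 0.102 for Ifih1 and -0.0871 to 0.139 for Ddx58.

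In the class I pathway itself, B2m scored 1.531, 1.724 and 1.498 in controls, 1.724, 1.595 and 1.565 with yellow and 1.658, 1.564 and 1.406 with green soybean. The extremes were yellow soybean replicate 1 and green soybean replicate 3, and control replicate 2 lay close to the former. The difference was -0.0417 for green minus control, with an interval of -0.214 to 0.131, 0.0439 for yellow minus control, and -0.0856 for green minus yellow soybean. Green minus yellow was -0.0172 without green soybean replicate 3 and -0.0374 without yellow soybean replicate 1, and -0.143 without green soybean replicate 1. The heavy chain genes H2-D1 and H2-K1 were not measured by probe sets of their own.

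Tap1, a subunit of the transporter that carries peptides into the endoplasmic reticulum, scored 0.000110, -0.110 and -0.194 in controls, -0.0461, -0.0775 and -0.167 with yellow and 0.0305, -0.0754 and -0.0560 with green soybean. Tap2, the other subunit, ranged over -0.0174 to 0.234, and green soybean replicate 3 was its lowest array. Tapbp, which encodes tapasin and holds the transporter to the class I molecule, scored 0.380, 0.411 and 0.305 in controls, 0.398, 0.347 and 0.433 with yellow and 0.487, 0.339 and 0.186 with green soybean, with the same array lowest.

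**Figure D4:**
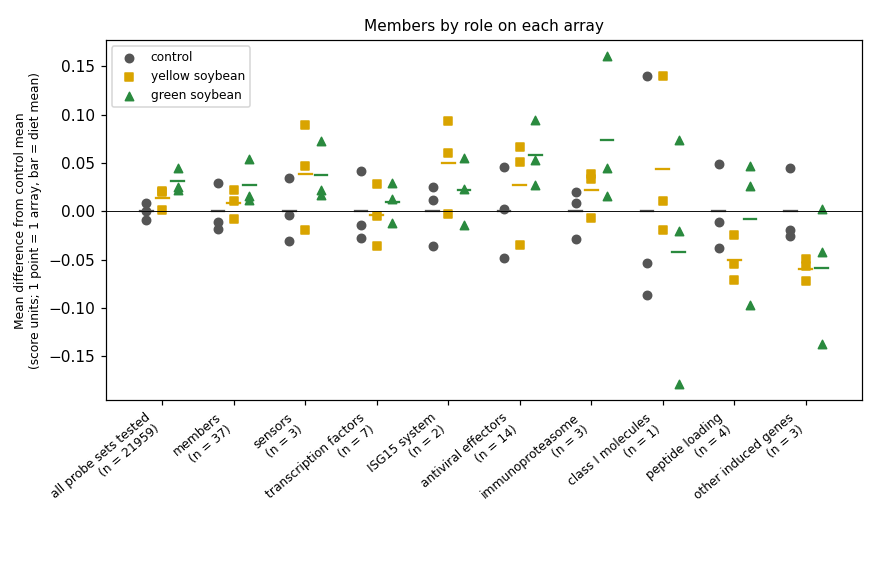
Mean difference from the control mean in score units (y axis) on each array for all probe sets tested, all members and each role group; n is the number of probe sets, points are arrays coloured by diet and bars are diet means. Green soybean replicate 3 is the top point for the immunoproteasome (0.160) and the bottom point for peptide loading (-0.0970) and class I molecules (-0.178).

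Within 1 array the role groups did not deviate alike. The mean difference from the control mean over the members was 0.0541, 0.0158 and 0.0120 on green soybean replicates 1, 2 and 3, against 0.0452, 0.0253 and 0.0222 over all probe sets tested. On the controls it spanned -0.0186 to 0.0295 and with yellow soybean -0.00784 to 0.0222, so green soybean replicate 1 lay above the other 8 arrays and the other green arrays lay inside the range of the controls. Green soybean replicate 1 was also the highest array in the mean of the markers of choroid plexus (0.407 from the control mean, highest in 7 of 9), leptomeninges (0.217), endothelium (0.110), microglia (0.0862) and astrocytes (0.0532). The same array was highest in the mean of the nucleic acid sensing genes (0.0654) and of the further induced genes (0.0494) described below. The part of these cells in the members' values was not tested. For the 3 immunoproteasome probe sets green arrays spanned 0.0157 to 0.160 and controls -0.0285 to 0.0196. For the 4 peptide loading probe sets, yellow arrays spanned -0.0711 to -0.0249 and controls -0.0381 to 0.0490. The yellow means are carried by Erap1, since Tap1, Tap2 and Tapbp differed by 0.00418, 0.0194 and 0.0271 for yellow minus control, and the median over the 4 was 0.0118.

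**Figure D5:**
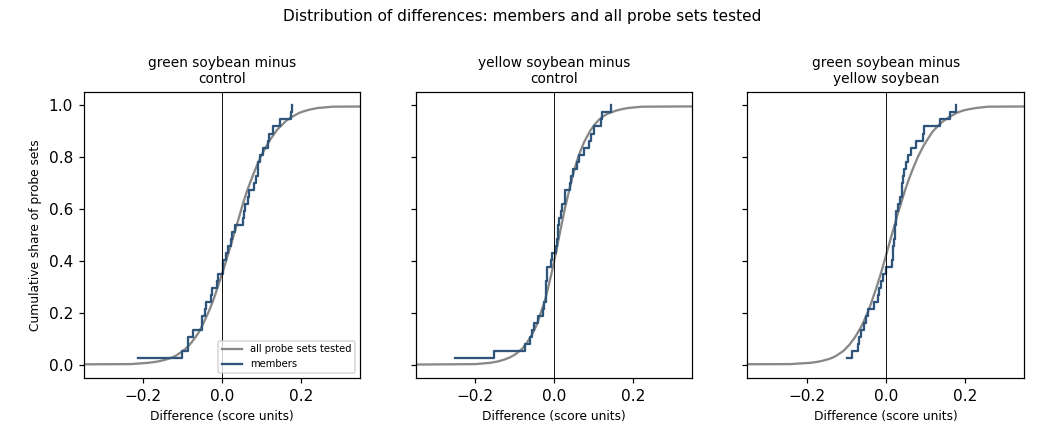
Cumulative share (y axis) of differences in score units (x axis) for the 37 member probe sets (blue steps) and all 21959 probe sets tested (grey line) in the 3 comparisons. The curves run close together, with medians of 0.0257 and 0.0296, 0.0103 and 0.0140, and 0.0221 and 0.0147.

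Members with and without a response element core in the promoter window differed in no fixed order. For green minus control, the 15 probe sets of 13 such genes had a median difference of 0.00337 with 8 higher, and the 16 probe sets of 15 genes with a window but no core had a median of 0.0561 with 12 higher. For yellow minus control these medians were 0.0188 and 0.00631, with 8 and 9 higher. For green minus yellow soybean they were 0.0233 and 0.0308, with 8 and 14 higher. The 6 genes without a window, read by 6 probe sets, had medians of 0.0342, 0.0338 and -0.0114 for green minus control, yellow minus control and green minus yellow. All these medians are descriptions of these arrays, and the differences between them were not tested.

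Other genes of the pathway, taken from lists set by function, gave 0 calls in every comparison. Among 11 probe sets of interferon receptors, their kinases and feedback inhibitors, 3 were higher with green soybean than in controls (27.3%, against 65.0% of all probe sets) and 8 lower. The counts were 1 and 10 with aligned medians and 2 and 9 after quantile normalization, and 0 were at an unadjusted p below 0.05 on the deposited scale. Of 9 nucleic acid sensing genes, 7 were higher with each extract than in controls on the deposited scale (77.8%, against 65.0% of all probe sets for green and 60.4% for yellow soybean). Under either rescaling 2 were higher with green and 4 with yellow soybean. Tlr7, the endosomal receptor for single-stranded RNA, averaged -0.307 in controls, -0.478 with yellow and -0.280 with green soybean, at an unadjusted p of 0.00971 for yellow minus control (limma adjusted p = 1.00) and 0.00399 for green minus yellow (limma adjusted p = 0.634). It is named as the 1 of the 9 at an unadjusted p below 0.05 there (11.1%, against 0.929% of all probe sets lower for yellow minus control and 5.56% higher for green minus yellow). Tlr7 does not stand for the list, of which 7 were higher with yellow soybean. For green minus control 1 of the 9 was higher at an unadjusted p below 0.05 (11.1%, against 8.32%). Of 21 further induced genes, 12 were higher with green soybean (57.1%, against 65.0% of all probe sets) and 9 lower, or 5 and 16 with aligned medians and 9 and 12 after quantile normalization. Zbp1, a sensor of Z-form nucleic acid, was the single gene of these 21 in this comparison at an unadjusted p below 0.05 (4.76%, against 8.32% of all probe sets), with a difference of 0.126 for green minus control (limma adjusted p = 0.501).

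Neighbours of the class I and class II pathways were mostly higher with green soybean under each scaling. Of 26 probe sets for 11 genes, 24 were above control (92.3%, against 65.0% of all probe sets), 19 with aligned medians and 20 after quantile normalization. On the deposited scale 6 of them were higher at an unadjusted p below 0.05 (23.1%, against 8.32% of all probe sets), and 0 were called. However, 16 of the 26 read a single gene, Nlrc5, the transactivator of class I genes. Its probe sets were higher in 15 of 16 with a median difference of 0.104 (with aligned medians 12 of 16, at 0.0542), and the smallest limma adjusted p was 0.438. They share a gene and are not independent. Of the 6 probe sets at an unadjusted p below 0.05, 4 read Nlrc5. The others read Ciita, the transactivator of class II genes, and H2-Eb1, a class II chain. They differed by 0.192 (limma adjusted p = 0.440) and 0.220 (limma adjusted p = 0.461). Both are named for their small p and do not stand for the list. Of its 26 probe sets, 2 were lower on the deposited scale, 7 with aligned medians and 6 after quantile normalization.

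Markers of other cells were read on the same arrays. Of 8 markers of leukocytes other than microglia, 5 were tested. With green soybean 4 were higher than in controls (80%, against 65.0% of all probe sets) and 1 was lower, at -0.0496. In 3, Cd3e, Cd4 and Cd8a of T cells, all green lay above all control arrays (60%, against 13.2%). These 3 had an unadjusted limma p below 0.05 (0.0448, 0.0366 and 0.0170; 60%, against 8.32%), with limma adjusted p between 0.461 and 0.503, and are named for it. The mean score of the 5 ranged from -0.422 to -0.358 in controls, -0.416 to -0.315 with yellow and -0.341 to -0.246 with green soybean, and S100a8 and Ly6g held exact zeros. All these means lay below -0.198, the lower quartile of the mean scores of all probe sets tested. Leptomeningeal markers were higher in 9 of 11 under each scaling (81.8%, against 65.0% of all probe sets on the deposited scale). Their mean score ranged from -0.106 to 0.0606 in controls and from 0.000569 to 0.192 with green soybean. On the deposited scale 3 of them were higher at an unadjusted p below 0.05 (27.3%, against 8.32% of all probe sets), and 0 were called. Their median difference was 0.145, or 0.0945 with aligned medians. Microglial markers were higher in 8 of 11 on the deposited scale (72.7%, against 65.0% of all probe sets), in 8 after quantile normalization and in 4 with aligned medians. Their mean scores were 0.347 to 0.442 in controls and 0.372 to 0.482 with green soybean. Among the 11, Aif1, which encodes IBA1, had the largest difference, 0.121 (limma adjusted p = 0.501), and 3 markers were lower on the deposited scale. It was the 1 marker at an unadjusted p below 0.05 (9.09%, against 8.32% of all probe sets). The Aif1 scores of both extracts lay above all controls, as did those of 13.2% of all probe sets for green and 6.65% for yellow soybean. Choroid plexus markers were higher in 6 of 9 on the deposited scale (66.7%, against 65.0% of all probe sets) and in 5 under either rescaling. Endothelial markers were higher in 7 of 9 on the deposited scale (77.8%) and in 3 under either rescaling, and neuronal markers were higher in 0 of 4 under each scaling. For yellow minus control, leptomeningeal markers were higher in 8 of 11 and neuronal markers in 0 of 4 under each scaling. Microglial markers were higher in 8 of 11 on the deposited scale (72.7%, against 60.4% of all probe sets) and in 7 under either rescaling. All yellow arrays lay above all control arrays in 3 of the 11 (27.3%, against 6.65%). Choroid plexus and endothelial markers were each higher in 5 of 9 on that scale. The part of these cells in the values of Oasl2, Psmb9 and Oas1a was not tested.

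The precision of these arrays bounds what could be seen. The 95% intervals of the member differences had half-widths of 0.108 to 0.214 units with a median of 0.143, and the number of arrays limits them. These half-widths are not adjusted for the number of probe sets, and a p above the threshold does not show that diets gave equal levels.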

How the data were processed

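Per the labels' protocols, total RNA of the hippocampus was isolated with RNeasy columns and converted to biotinylated cRNA for 1-colour Affymetrix arrays. Each array's deposited values are scores that the authors obtained from the SuperNORM data service, according to the labels. Background steps and log base: not given in the sources used here. A deposited p-value per probe set, whose test is not given, was not used, nor were 18 value columns that match no label. Sample titles carry SMP30 where the strain label says SAMP10.

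Of 34760 probe sets, 21640 had 1 gene symbol, 1321 several and 11799 none. The 6573 numbered below the first annotated probe set and 6228 with an exact 0 on any array were left out, and 21959 were tested. The control mean was 0 (within 1e-06) for 1345 of these, 0 of them members. Another 6 probe sets naming a member beside other genes were not used. The linear model was limma's (version 3.58.1, R 4.3.3; lmFit and eBayes with no intensity trend, 9 arrays, no covariates, 2-sided), with Benjamini-Hochberg adjustment over all probe sets and calls below 0.05. The script was tested on simulated data. Members, lists and tests were chosen with earlier results of these data known. Per-array values were given by rule for the 5 members with the smallest p per direction and comparison and for 23 genes set out with the design, of which 20 were measured. Those of Oasl1 were given outside this rule, beside its relative Oasl2. Alternatives covered scaling, filters, zeros, probe set averaging, array weights, a replicate block and each array left out.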

Additional observations from a re-analysis of the deposited data

How the results depend on the processing

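The count of members called was 0 in each comparison and in the F-test under every alternative that could be fitted, 18 for each comparison and 17 for the F-test, including each array left out; the smallest adjusted p was 0.303 for green minus control, 0.868 for yellow minus control and 0.428 for green minus yellow soybean. The members' median difference moved with the scaling. With array medians aligned it was -0.0244 for green and -0.0186 for yellow soybean minus control, and after quantile normalization -0.0132 for green minus control and -0.0127 for green minus yellow. With only the 10 members at or above the median score and an intensity trend it was -0.0204 and -0.0321 for these comparisons. The cause was not tested. With an array left out the medians ranged from 0.0132 to 0.0491, 0.00262 to 0.0246 and 0.00259 to 0.0385 for green minus control, yellow minus control and green minus yellow. Counts at an unadjusted p below 0.05 were 2 higher and 1 lower for green minus control and ranged from 0 to 3 and 0 to 2; for yellow minus control they were 0 and 1 and ranged from 0 to 2 in both directions, and for green minus yellow 3 and 0, ranging from 0 to 3 and 0 to 1. Of 30 differences followed, the sign turned for Ifitm2 with its probe sets averaged (0.00113, yellow minus control) and, without green soybean replicate 3, for Ifitm2 and Stat2. With an array left out, the 2 Ifitm2 probe sets ranged from -0.179 to 0.00231 and from -0.168 to 0.0195 for green minus control, the second from -0.151 to 0.0366 for green minus yellow, and Stat2 from -0.118 to 0.0144 for green minus yellow. The labels state no link between same-numbered arrays of different diets. Correlations of their deviations from the diet means ran from -0.0817 to 0.165, against -0.169 to 0.186 for arrays with different numbers. Deviations from a mean of 3 arrays are tied to each other, so these ranges do not settle whether arrays were paired. With the replicate number as a block, 0 members were called in each comparison, with a smallest adjusted p of 0.451 for green minus control.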
